A study of Mus musculus with 24 samples.

Results

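The first 2 days of reprogramming without interferon gamma (IFNγ) were described by comparing the control libraries of day 2 with those of neural precursor cells (NPCs), the cell type from which reprogramming started. The genes described were all those with a mean above 10 normalized counts over these 4 libraries, 15738 of the 37315 genes in the table. The 4 libraries were 2 NPC and 2 day 2 control libraries, of 24 in the series. All cells derived from PaX, a female mouse embryonic stem cell (ESC) line that is a hybrid of Mus musculus and M. castaneus. Every group therefore carried the same alleles, namely a GFP reporter in Hprt on the musculus X chromosome (X-GFP), a truncated Tsix, an RFP reporter driven by a Nanog promoter fragment (P-RFP), and a doxycycline-inducible MKOS cassette of Myc, Klf4, Oct4 (Pou5f1) and Sox2 with rtTA in Sp3. NPCs were grown without serum in the presence of EGF, bFGF and a ROCK inhibitor and were sorted as negative for SSEA1, P-RFP and X-GFP. Ascorbic acid and doxycycline were added to NPC medium. After 1 day the cells were seeded on irradiated male mouse embryonic fibroblasts (feeders) in medium with fetal bovine serum, LIF, ascorbic acid and doxycycline. The methods for these libraries describe that seeding as the step that induced reprogramming, so doxycycline had been present for 1 day before it. The feeders were stained with CFSE, and the CFSE-negative cells were sorted for RNA sequencing at day 2. The day 2 control cells received no IFNγ. Day 5 libraries without IFNγ are given below beside day 2. Their cells were enriched and sorted as SSEA1-positive, and the day 7 cells shown were sorted as SSEA1-positive and X-GFP-negative. Day 2 cells were not sorted by SSEA1, so between day 2 and these later days the time and the sort cannot be told apart. The medium listed for the day 2 cells held no ROCK inhibitor. Medium, serum, LIF, ROCK inhibitor, the feeders and the sort all differed between the groups, and their parts cannot be told apart. Whether the cells of the NPC libraries had already received doxycycline and ascorbic acid is not given in the sources used here. These 2 additions may therefore have differed between the groups as well. All libraries came from 1 cell line. The study's methods call the libraries of a group independent replicates, and neither they nor the labels say whether these were separate cultures, so p-values measure only the spread between these libraries.

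In reprogramming of somatic cells, the factors Oct4, Sox2, Klf4 and Myc are forced on together. Early events known from fibroblasts and other somatic cells are the loss of the genes that define the starting cell and, in mesenchymal cells, a gain of epithelial genes, whereas most of the pluripotency network is switched on later. NPCs are neural stem cells kept dividing by EGF and FGF, and depend on Sox2, Notch signalling and transcription factors of the neural tube such as Pax6 and Olig2.

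Values are normalized counts, which are read counts divided by a size factor for each library. A gene was called higher or lower when limma's test on log2(normalized count + 1) gave a Benjamini-Hochberg adjusted p under 0.05 and the fold change was at least 2, and "rose" and "fell" are used below for such genes only. Changes are log2 fold changes of day 2 over NPC on that scale, with their standard errors (SE), which understates the change of low genes. The libraries held 27597387 and 30444975 reads on genes in NPCs and 26661831 and 26864197 at day 2.

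Of the 15738 genes, 2356 rose (15.0%) and 2283 fell (14.5%). At an adjusted p under 0.05 with no minimum fold, 4495 genes were higher (28.6%) and 5310 lower (33.7%), and the median change over all genes tested was −0.08. These 4 percentages are the background for each gene list below. Large changes were more often increases, since 843 genes rose by 8-fold or more on the fitted scale and 266 fell by as much.

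**Figure D1:**
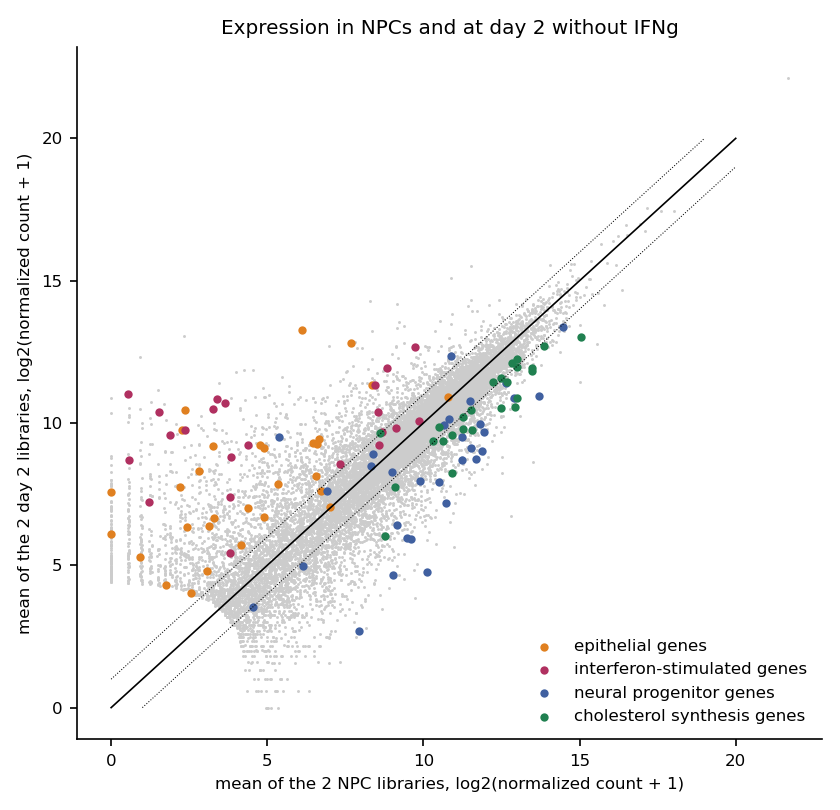
Each grey point is 1 of the 15738 genes tested, placed by its mean in the 2 NPC libraries (x) and in the 2 day 2 libraries (y), both as log2(normalized count + 1). The solid line marks equal levels and the dotted lines 2-fold changes. Most epithelial and interferon-stimulated genes lie above the upper dotted line, and most neural progenitor and cholesterol synthesis genes lie below the lower one.

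Because day 2 libraries may hold RNA of the feeders, fibroblast genes and genes of the Y chromosome were counted apart. PaX cells have no Y chromosome and the feeders were male. The Y-linked helicase gene Ddx3y had 0 and 0 in NPCs and 110.0 and 105 at day 2, at least 38.8-fold higher against a floor of 3 reads per library. Of 6 Y-linked genes, 4 were tested and rose, with a median change of 5.35, or 4.10 with all 4 set to their bound. All 4 were at that floor in NPCs, and such genes pass the filter only if they are high at day 2. The summed level of the 6 genes of that list was 0 to 1.94 in NPCs and 218 to 254 at day 2. Per kilobase of exon, the 4 Y-linked genes Ddx3y, Eif2s3y, Kdm5d and Uty reached 0.173% to 1.63% of their X-linked homologues in the day 2 libraries. The share of feeder RNA in other genes was not tested.

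Of 30 fibroblast markers, 13 rose and 3 fell, with a median change of 0.90. Col1a1, a chain of type I collagen, had 621 and 698 in NPCs and 12559 and 9244 at day 2 (log2 fold change 4.03 ± 0.15, adjusted p = 3.53e-05, limma). Pi16 had 26.3 and 21.1 in NPCs and 1164 and 1297 at day 2, and Mfap5, a microfibril protein, had 2 and 320 reads in both NPC and both day 2 libraries together, a ratio of 174-fold (95% interval 47.8 to 1445). These intervals of read ratios cover counting error only. The list was already expressed in NPCs, where Col3a1 alone had 20145 and 30501, so its summed level was 63975 to 92686 in NPCs and 114681 to 148728 at day 2. The 3 members that fell were Pdgfrb (log2 fold change −1.65 ± 0.23), the receptor for PDGF-B, Lum (−1.47 ± 0.21), a small proteoglycan, and Postn (−1.39 ± 0.16), a matricellular protein. At day 5 without IFNγ, both libraries were below both day 2 libraries for 27 of the 30 markers, against 44.9% of all genes tested, and Col1a1 had 439 and 321.

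**Figure D2:**
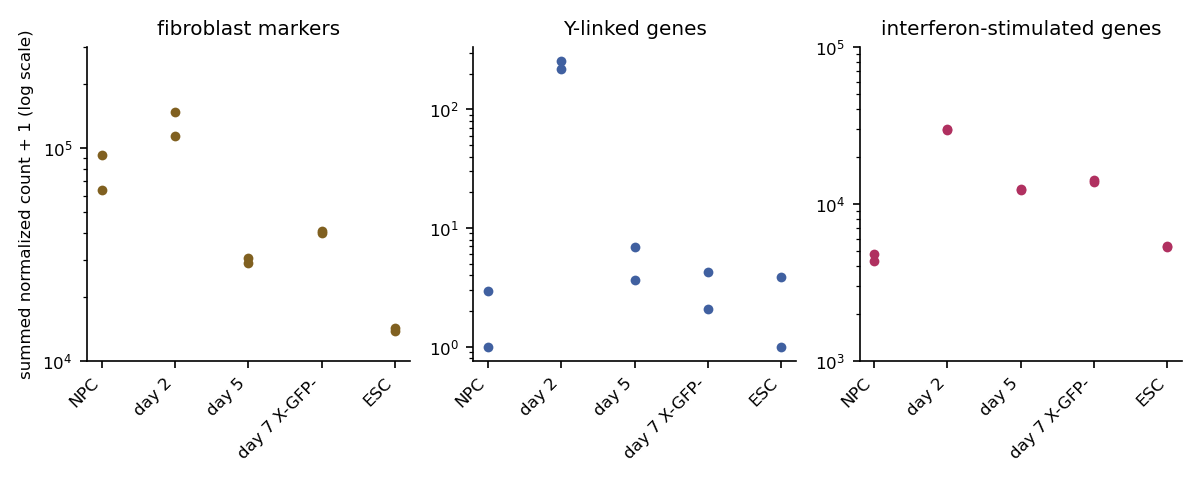
Each point is 1 library without IFNγ (NPC, day 2, day 5, day 7 X-GFP-negative and ESC, 2 each), and the y axis gives the summed normalized count of a list plus 1 on a log scale, for fibroblast markers (30 genes), Y-linked genes (6 genes) and interferon-stimulated genes (22 genes). All lists are highest at day 2, while fibroblast markers are also high in NPCs. Day 5 and day 7 cells were sorted as SSEA1-positive, and day 2 cells were not.

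Other cell types that a feeder layer could hold were checked with their markers. Of 13 macrophage markers, 3 passed the filter and 2 rose, while Ptprc, Csf1r, C1qa, C1qb, Tyrobp and Spi1, which define these cells, had at most 6.95 normalized counts in either day 2 library. The macrophage list summed to 126 to 145 in NPCs and 603 to 688 at day 2, with Laptm5 the gene of the largest rise (1.94 and 1.76 in NPCs and 312 and 445 at day 2). Of 11 endothelial markers, 9 were tested, and 3 rose (Flt1, Tek and Tie1) and 2 fell (Kdr and Emcn), the call of Emcn being lost without the first day 2 library (−4.64), while Cldn5 had at most 1.02 in either day 2 library. Of 10 erythroid markers, only the embryonic globin gene Hbb-y passed the filter (0 and 0 in NPCs and 34.6 and 17.9 at day 2). Of 11 skeletal muscle markers, 7 were tested and 5 rose, with a sum of 156 to 162 in NPCs and 410 to 1231 at day 2. The muscle genes were uneven between the day 2 libraries, as Ttn, the giant sarcomere protein, had 45.7 and 53.6 in NPCs and 536 and 121 at day 2, and its log2 fold change without the first day 2 library was 1.27, with the call lost, as it was with no filter on low values. In bulk RNA, fewer cells of a type and less RNA per cell cannot be told apart.

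The 4 factors of the cassette were examined first. Reads from the cassette and from the endogenous genes share sequence and were not told apart here. Pou5f1 (chr17:35506000-35510800, GRCm38) had 2.92 and 5.27 in NPCs and 8739 and 8204 at day 2 (log2 fold change 10.74 ± 0.25, adjusted p = 2.6e-05, limma). Klf4 had 97.2 and 153 in NPCs and 6611 and 6839.6 at day 2, and Myc had 178 and 345 in NPCs and 6177 and 6478 at day 2. Sox2, which NPCs express on their own, had 8005 and 6399 in NPCs and 5400.3 and 6184 at day 2, and did not pass the threshold (log2 fold change −0.31 ± 0.13, adjusted p = 0.0767, limma). Thus 3 of the 4 factors rose and their NPC and day 2 libraries lay far apart, whereas Sox2 was high before and after.

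Of 27 pluripotency genes, 21 were tested, and 9 rose and 1 fell, with a median change of 1.00. Nanog, a core transcription factor of the pluripotent state, had 8.75 and 8.78 in NPCs and 934 and 842 at day 2 (log2 fold change 6.51 ± 0.20, adjusted p = 3.16e-05, limma), and reached 4184 and 4110.0 at day 5 and 26564 and 24098 in ESCs. The RNA-binding protein gene L1td1 rose from 1.94 and 0 to 1062 and 965. Its 2 and 2015 reads in both NPC and both day 2 libraries gave a ratio of 1097-fold (95% interval 303 to 9067). Tfcp2l1, a factor of the naive state, had 37.9 and 26.4 in NPCs and 338 and 293 at day 2, and Zfp42 (Rex1) had 3.89 and 0 in NPCs and 69.2 and 60.5 at day 2, where the call was lost without either day 2 library (log2 fold change 4.80 to 4.99). The day 2 levels of these genes lay between those of NPCs and ESCs in every library.

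The others that rose were Fgf4, Gdf3, Lin28a, Tdgf1 and Utf1. Esrrb, Sall4 and Fut9 were among the tested members that were not called. Esrrb had 61.3 and 41.3 in NPCs and 73.3 and 36.7 at day 2 against 21337 and 20632 in ESCs, and Sall4 had 1101 and 730.0 in NPCs and 772 and 780.1 at day 2, which does not separate the groups. Fut9, which makes the SSEA1 epitope used to sort reprogramming cells, had 659 and 437 in NPCs and 433 and 495 at day 2 (log2 fold change −0.21 ± 0.21). Dppa2, Dppa4, Dppa5a, Dnmt3l, Prdm14 and Tcl1 did not pass the filter on low values, and each had at most 13.9 normalized counts in either day 2 library. At day 5, both libraries lay above both day 2 libraries for 20 of the 21 genes, against 38.7% of all genes tested.

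**Figure D3:**
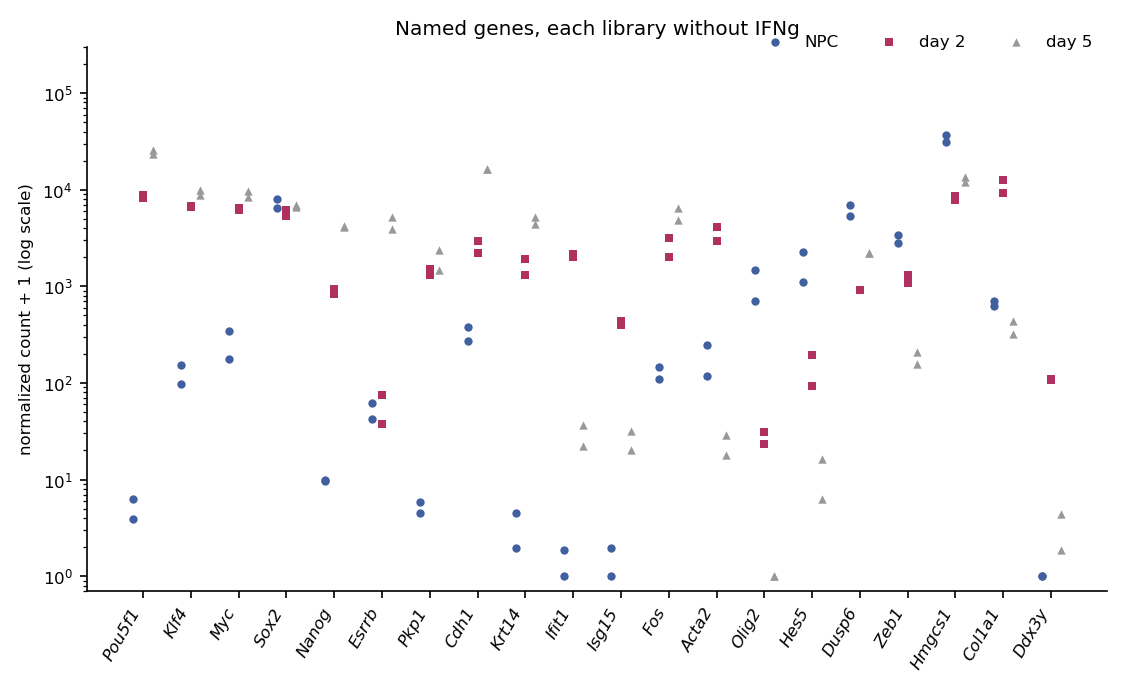
Each point is 1 library without IFNγ (2 NPC, 2 day 2 and 2 day 5 libraries), and the y axis gives the normalized count plus 1 on a log scale. Day 5 cells were sorted as SSEA1-positive, and day 2 cells were not. Pou5f1, Klf4, Myc and Nanog are far above NPCs at day 2 while Sox2 and Esrrb are not, and Ifit1, Isg15, Acta2, Col1a1 and Ddx3y are higher at day 2 than both before and at day 5.

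Epithelial genes rose as a group. Of 32 genes, 30 were tested, and 26 rose and none fell, with a median change of 3.15. Cdh1 encodes E-cadherin, the adhesion molecule of epithelial junctions and of pluripotent cells, and had 271 and 379 in NPCs and 2927 and 2197 at day 2 (log2 fold change 2.98 ± 0.20, adjusted p = 0.000126, limma). Pkp1, a plaque protein of desmosomes, had 4.86 and 3.51 in NPCs and 1500.0 and 1318 at day 2, and Dsp, desmoplakin, had 186 and 227 in NPCs and 8242 and 6064 at day 2. The keratin gene Krt8 had 49.6 and 86.1 in NPCs and 11896 and 7801 at day 2. In each of these genes the day 2 libraries exceeded both NPC libraries by several-fold.

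Junction genes and regulators of the epithelial state took part as well. Cldn3, a tight junction claudin, had 6.81 and 0.878 in NPCs and 829 and 899 at day 2, and Ovol1, a repressor of mesenchymal genes, had no read in NPCs and 211 and 165 at day 2, at least 67.6-fold higher. Epcam, a surface marker of epithelial and pluripotent cells, rose from a lower level (39.9 and 39.5 in NPCs and 273 and 188 at day 2), and reached 4649 and 4229 at day 5. The 4 tested genes that were not called were Grhl1, Jup, Prss8 and Tjp3. Both day 5 libraries were above both day 2 libraries for 26 of the 30 genes (38.7% of all genes tested).

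A second list, of genes of the squamous epidermis, also rose. Of 16 epidermal genes, 11 were tested and 10 rose, with a median change of 6.78, or 6.30 when the 7 genes at the floor in NPCs were set to their bound. Genes at that floor pass the filter only if they are high at day 2. The basal keratin gene Krt14 had 0.972 and 3.51 in NPCs and 1900.2 and 1315 at day 2. Krt6a, a keratin of activated epidermis, had 4 and 4497 reads in both NPC and both day 2 libraries together, a ratio of 1224-fold (95% interval 478 to 4496), and Krt16, its partner, had no read in NPCs and was at least 164-fold higher. Trp63, the transcription factor that defines basal epidermal cells, was not called and had 6.81 and 10.5 in NPCs and 13.2 and 10.9 at day 2. Thus 5 keratin genes of the list rose while Trp63 stayed low in all 4 libraries. Keratin genes of a cluster are similar in sequence, and their reads could be split between neighbours.

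Keratinocyte genes were also among the largest increases over all genes. Among genes with at least 500 normalized counts in the higher group, the 12 largest increases were Fetub, Krtdap, Pou5f1, Ifit1, Oas2, Capn9, Krt13, Cyp4f39, Ly6a, Krt6a, Aldh3a1 and Mal, none of which is in the fibroblast or Y-linked list. Fetub encodes fetuin-B, a plasma protease inhibitor, and had 0 and 1.76 in NPCs and 4856 and 5326 at day 2, a ratio of reads of 5519-fold (95% interval 1527 to 45579). Krtdap, a protein of differentiating keratinocytes, had no read in NPCs and 1896 and 1886 at day 2, at least 681-fold higher. Krt13 is a keratin of mucosal epithelium, and had a ratio of 2699-fold (95% interval 484 to 106640.0). Aldh3a1, an aldehyde dehydrogenase abundant in cornea and stomach, rose from 0 and 0.878 to 1156 and 939.9, and had 7304 and 8009.6 at day 5. Fetub, Krtdap, Krt13 and Aldh3a1 were all lower in ESCs than at day 2, since their higher ESC library had 749.9, 107, 56.1 and 111 normalized counts, respectively.

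Transcription factors that drive the mesenchymal state moved less. Of 11 genes, none rose and 4 fell (Zeb1, Zeb2, Twist1 and Foxc2), with a median change of −0.72. Zeb1, a repressor of Cdh1, had 3393 and 2796 in NPCs and 1079 and 1318 at day 2 (log2 fold change −1.37 ± 0.14, adjusted p = 0.00043, limma). Twist1 had 833 and 1457 in NPCs and 386 and 279 at day 2, and its call was lost without either day 2 library (log2 fold change −1.98 to −1.51). Foxc2 had 74.9 and 166 in NPCs and 52.95 and 27.8 at day 2, a call lost without either day 2 library or the second NPC library or with no filter on low values (−1.97 to −0.94). Snai2 had 32.1 and 67.6 in NPCs and 28.5 and 28.8 at day 2 and was not called, but passed the threshold without the first NPC library (−1.21).

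Genes of the neural progenitor fell. Of 32 genes, 31 were tested, and 22 fell and 2 rose, with a median change of −1.93, and the summed level of the list went from 85898 to 93505 in NPCs to 31227 to 36192 at day 2. Olig2, a ventral neural tube and oligodendrocyte lineage factor, had 1489 and 703 in NPCs and 22.4 and 29.8 at day 2 (log2 fold change −5.25 ± 0.37, adjusted p = 0.000145, limma). Sox3, a SOXB1 factor related to Sox2, had 609.7 and 434 in NPCs and 19.3 and 29.8 at day 2, and Sox1, the third of that group, had 4783 and 2669.7 in NPCs and 419 and 621 at day 2. Hence Sox1 and Sox3 fell while Sox2, which is also in the cassette, was not called. The part of cassette reads in the Sox2 counts was not tested.

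Fabp7, Nes and Pax6 fell less far than Olig2 and Sox3. Fabp7, a lipid carrier of radial glia, had 12989.6 and 13491 in NPCs and 1737 and 2246 at day 2. Nes, the intermediate filament nestin, had 22302 and 22866 in NPCs and 9423 and 11667 at day 2 (log2 fold change −1.11 ± 0.11, adjusted p = 0.000489, limma), and was not called without the first day 2 library (−0.95). Pax6 had 1989 and 893 in NPCs and 217 and 272 at day 2, a call lost without either day 2 library (−2.61 to −2.29). The 2 genes that rose were Cspg4 (43.8 and 36.9 in NPCs and 788 and 682 at day 2), the NG2 proteoglycan that pericytes and oligodendrocyte precursors share, and Tnc (1444 and 2353 in NPCs and 6116 and 4364 at day 2), tenascin C, a matrix protein also made by fibroblasts, whose call was lost without the first day 2 library (1.24).

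Of 21 neuronal genes, 11 fell and 1 rose, with a median change of −1.31. The homeobox genes Dlx1 (1143 and 1141 in NPCs and 98.8 and 118 at day 2) and Dlx2 (781 and 538 in NPCs and 63.1 and 55.6 at day 2) of interneuron precursors were among them, as was Nefm (539 and 606 in NPCs and 27.5 and 32.8 at day 2), a neurofilament subunit. The gene that rose was Stmn2, a regulator of microtubules, with 1071 and 1024 in NPCs and 4539.8 and 4502 at day 2. Of 16 astrocyte genes, 14 were tested, and 8 fell and 2 rose, with the water channel gene Aqp4 at 96.3 and 112 in NPCs and 11.2 and 7.94 at day 2. Gfap did not pass the filter.

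The 12 largest decreases over all genes were led by an identifier with no symbol in the annotation used, followed by Sim1, D030055H07Rik, Olig2, Fezf2, Spon1, Slitrk6, Dbx1, Lsamp, Dlx6os1, Sox3 and Megf6. Sim1, Olig2, Fezf2, Dbx1 and Sox3 are transcription factors of the developing brain or neural tube. Fezf2, a cortical and forebrain factor, had 826 and 491 in NPCs and 8.15 and 35.7 at day 2, and Dbx1, of interneuron progenitors, had 1186 and 575 in NPCs and 25.5 and 38.7 at day 2. Spon1, a secreted floor plate protein, fell from the highest level of these genes (9434 and 13802 in NPCs and 297 and 483 at day 2). Dlx6os1 overlaps Dlx6 on the opposite strand, and whether the counting used strand is not given in the sources used here.

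Signalling genes were grouped by pathway. In the Notch pathway, in which a ligand on 1 cell activates a receptor on its neighbour, 8 of 17 genes fell and 1 rose, with a median change of −0.80. The target Hes5 had 2271 and 1109.5 in NPCs and 91.7 and 196 at day 2, and the targets Hey1 and Heyl had log2 fold changes of −2.78 ± 0.29 and −3.48 ± 0.24. The receptor Notch1 was not called (6768 and 5477 in NPCs and 3708 and 4455 at day 2). The ligand gene Jag2 rose (378 and 329 in NPCs and 948 and 889 at day 2).

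ERK signalling, which EGF and FGF activate, induces its own inhibitors. Of 16 genes in a list of such feedback genes and other ERK targets, 8 fell and 2 rose, with a median change of −0.95. The ERK phosphatase gene Dusp6 had 5284 and 6874 in NPCs and 924 and 916 at day 2, and the inhibitor gene Spry1 had 2086 and 2311 in NPCs and 388 and 338 at day 2. The 2 genes that rose were Dusp5 (213 and 225 in NPCs and 471 and 447 at day 2) and Fosl1 (0.972 and 4.39 in NPCs and 91.7 and 74.4 at day 2). Ccnd1, cyclin D1, had 8081 and 5892 in NPCs and 13019.5 and 13629.5 at day 2 and stood just under the 2-fold minimum (log2 fold change 0.95 ± 0.15), which it passed with DESeq2, edgeR or TMM factors or without the first NPC library (1.00 to 1.18).

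Of 16 genes in a list of Wnt targets that also held a ligand gene, 8 fell and 2 rose, with a median change of −0.84. The inhibitor Dkk1 had 280.0 and 276 in NPCs and 12.2 and 13.9 at day 2, and the transcription factor gene Sp5 had 939 and 622 in NPCs and 46.8 and 69.5 at day 2. The ligand gene, Wnt7b, had 2554 and 1679.6 in NPCs and 138 and 219 at day 2. Of the 2 that rose, Nkd2 (1.10 on the log2 scale) lost its call without the first NPC or the second day 2 library (0.95 to 0.96) and Rnf43 (1.13) without the second NPC library or either day 2 library or with no filter on low values (0.61 to 1.30). Genes downstream of BMP and TGF-beta split, with 7 of 22 higher and 4 lower and a median of −0.04. The BMP targets Id3 (7624 and 7933 in NPCs and 1745 and 1681 at day 2) and Id4 (2804 and 2508 in NPCs and 297 and 371 at day 2) fell, while Ltbp2 (28.2 and 34.3 in NPCs and 1394 and 1124 at day 2), a matrix protein, rose.

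The medium of the day 2 cells contained LIF, which signals through Stat3. Of 15 genes of this pathway, 5 rose and 1 fell, with a median change of 0.80. Stat3 itself had 1511 and 1817 in NPCs and 4436 and 4372 at day 2 (log2 fold change 1.41 ± 0.10, adjusted p = 0.000155, limma). Osmr, the oncostatin M receptor, had 7.78 and 17.6 in NPCs and 630.4 and 457 at day 2, and Bcl3, a nuclear cofactor of NF-kB, had 7.78 and 4.39 in NPCs and 184 and 184 at day 2. Cebpd had 23.3 and 44.8 in NPCs and 212 and 178 at day 2, and was not called without the first day 2 library (2.42). The gene that fell was Gbx2.

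Immediate early genes, which serum and growth factors induce within minutes, were higher. Of 18 genes, 11 rose and none fell, with a median change of 2.25. Fos had 109.9 and 147 in NPCs and 3183 and 2007 at day 2 (log2 fold change 4.30 ± 0.25, adjusted p = 8.34e-05, limma). Junb had 86.5 and 124 in NPCs and 1944 and 1375 at day 2, and the nuclear receptor gene Nr4a1 had 59.3 and 74.7 in NPCs and 1061 and 921 at day 2. Cell dissociation and sorting can also induce these genes, and the sort at day 2 cannot be told apart from the other differences between the groups. Both day 5 libraries were above both day 2 libraries for 12 of the 18 genes (38.7% of all genes tested).

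Serum also acts on cytoskeletal genes through SRF and its cofactors MRTF, which bind a sequence called the CArG box. Of 23 such genes, 12 rose and none fell, with a median change of 1.45. Acta2, smooth muscle actin, had 117 and 245 in NPCs and 4077 and 2928 at day 2 (log2 fold change 4.34 ± 0.35, adjusted p = 0.000215, limma), Tagln had 64.2 and 117 in NPCs and 1917 and 1485 at day 2, and Tagln2 had 465 and 733 in NPCs and 12381 and 11628 at day 2. Acta2 and Tagln, which activated fibroblasts also express, were at 27.8 and 16.9 and 69.0 and 44.4 at day 5, whereas Tagln2 stayed at 12027 and 10647. The parts of feeder RNA, of serum and of the ROCK inhibitor of the NPC medium in these genes were not tested.

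A CArG box was found on either strand in 7 of the 20 RefSeq promoters held for genes of this list (35.0%) and in 1.63% of all 32851 promoters, each reaching from 250 bases before to 50 bases after a transcription start in GRCm38.p6. Promoters were held for 19 of the 23 genes, and 6 of these had the box. Windows from 4 of them show the site in capitals, in the direction of transcription and 5′ to 3′, because they carry the element for which the list is named. Lima1 and Fhl2 rose, and Cnn2 and Vcl were not called (log2 fold changes 2.51 ± 0.16, 1.77 ± 0.46, 0.39 ± 0.40 and 0.85 ± 0.18). They lie at chr15:99820171-99820212 (minus strand), chr1:43163967-43164008 (minus), chr10:79988528-79988569 (plus) and chr14:20929155-20929196 (plus).
Lima1: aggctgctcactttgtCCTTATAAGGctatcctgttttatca
Fhl2: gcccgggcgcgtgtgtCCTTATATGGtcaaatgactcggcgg
Cnn2: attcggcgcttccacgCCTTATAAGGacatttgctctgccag
Vcl: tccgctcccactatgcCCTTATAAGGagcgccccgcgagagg

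Interferon-stimulated genes rose although no IFNγ was added. Interferons switch on genes that limit viruses and present antigens. Of 22 genes, 18 rose and none fell, with a median change of 4.24, and the summed level went from 4313 to 4832 in NPCs to 29730 to 29991 at day 2. Ifit1, an RNA-binding antiviral protein, had 0 and 0.878 in NPCs and 2154 and 2029.7 at day 2, a ratio of reads of 4531-fold (95% interval 813 to 178995). Isg15, a ubiquitin-like protein, had 0.972 and 0 in NPCs and 435 and 396 at day 2. For Ifit1 and Isg15, the NPC libraries were at or near 0 and the day 2 libraries close to each other. Of the 22 genes, 4 had at most 3 reads in each NPC library.

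The genes of signalling and antigen presentation moved unequally. Irf7, which amplifies the type I response, had 0 and 2.64 in NPCs and 145 and 151 at day 2, a ratio of reads of 107-fold (95% interval 36.2 to 521), and Oas2, which makes the activator of RNase L, had no read in NPCs and was at least 475-fold higher. H2-K1, a class I antigen chain, was not called (1260.2 and 604 in NPCs and 1082 and 1089 at day 2), nor were Ifit2, Stat2 and Tap1. H2-K1 and H2-D1 are near-identical in part, and their reads are uncertain.

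Most of these genes had lower levels in the SSEA1-positive cells of day 5. Both day 5 libraries lay below both day 2 libraries for 18 of the 22 genes (44.9% of all genes tested), and Ifit1 had 21.0 and 35.5 and Isg15 19.4 and 31.1 there. The fibroblast and Y-linked lists were also higher at day 2 than in NPCs and at day 5, with sums at day 5 of 28911 to 30508 and 2.66 to 5.89, and their part in this increase was not tested. The macrophage list took another course, with a higher sum at day 5 (1158 to 1298) than at day 2 (603 to 688). Of 20 chemokine and cytokine genes, 13 were tested and 10 rose, with a median change of 2.37. The neutrophil attractants Cxcl1 (3.89 and 0.878 in NPCs and 243 and 213 at day 2) and Cxcl5 (21.4 and 21.1 in NPCs and 985 and 925 at day 2) and the monocyte attractant Ccl7 (3.89 and 18.4 in NPCs and 668 and 589 at day 2) rose furthest among those above 100 normalized counts.

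The interferon-stimulated response element, searched as GAAANNGAAA on both strands, was found in 9 of 25 promoters held for genes of this list (36.0%) and in 3.44% of all promoters. Promoters were held for 20 of the 22 genes. Matches can overlap each other, as they did in Isg15. Windows from 4 of these genes, all of which rose, show 1 match each in capitals, because they carry the element through which such genes are known to respond. They lie at chr19:34640788-34640829 (Ifit1, plus strand), chr4:156200865-156200906 (Isg15, minus), chr3:142620588-142620629 (Gbp2, plus) and chr2:122147532-122147573 (B2m, plus).
Ifit1: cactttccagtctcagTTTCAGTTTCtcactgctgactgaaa
Isg15: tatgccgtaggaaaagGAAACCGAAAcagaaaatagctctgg
Gbp2: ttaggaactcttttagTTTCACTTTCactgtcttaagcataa
B2m: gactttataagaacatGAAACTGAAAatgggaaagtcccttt

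Genes of cholesterol synthesis fell together. The pathway is switched on by SREBP2 when cells are low in sterols. Of 25 genes, 18 fell and 1 rose, and 24 were lower at an adjusted p under 0.05, with a median change of −1.26. The summed level of the list was 150305 to 158863 in NPCs and 54949 to 60965 at day 2. Hmgcs1, which makes HMG-CoA, had 36951 and 31185 in NPCs and 8654 and 7772 at day 2 (log2 fold change −2.05 ± 0.11, adjusted p = 7.06e-05, limma). Acat2 had 8283 and 7174 in NPCs and 1554 and 1464 at day 2, and the sterol reductase gene Tm7sf2 had 1960.2 and 1896 in NPCs and 332 and 276 at day 2. All day 2 libraries were below all NPC libraries for these genes.

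The exception was Ebp, a sterol isomerase, with 404 and 384 in NPCs and 866 and 732 at day 2, whose call was lost without the second NPC or the first day 2 library (log2 fold change 0.89 to 0.98). Of 12 genes of fatty acid synthesis, 5 fell and 1 rose, with a median change of −0.80. The desaturase genes Fads2 (7492 and 6649 in NPCs and 1443 and 1400.5 at day 2) and Scd2 (89563 and 79919 in NPCs and 26206 and 26266 at day 2) fell, and Me1, malic enzyme, rose (436 and 579.8 in NPCs and 1268 and 1298 at day 2). At day 5, both libraries lay above both day 2 libraries for 21 of the 25 cholesterol genes (38.7% of all genes tested).

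The sterol regulatory element, searched as TCACNCCAC on both strands, was found in 1 of 20 promoters held for 17 of the 25 cholesterol genes (5.00%) and in 1.24% of all promoters. The 1 match, in capitals, was in Hmgcs1 at chr13:119690198-119690238 (plus strand), and it ended 128 bases before the start.
Hmgcs1: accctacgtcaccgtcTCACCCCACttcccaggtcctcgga

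**Figure D4:**
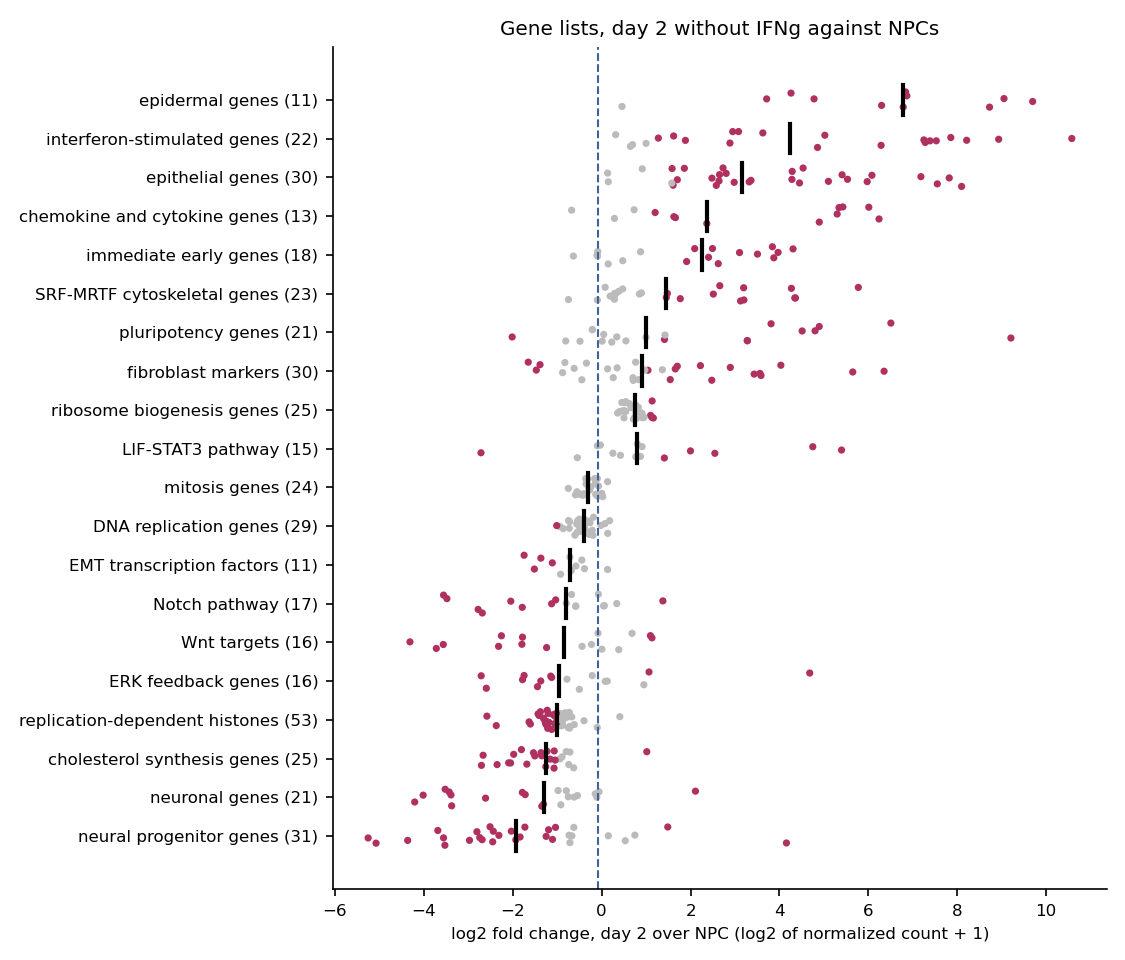
Each point is the log2 fold change of 1 gene, day 2 over NPC, in 20 of the gene lists, with the number of genes tested in parentheses. Red points passed the test with at least a 2-fold change, black bars mark list medians, and the dashed line marks the median of all genes (−0.08). Epidermal, interferon-stimulated and epithelial genes lie furthest to the right, and neural progenitor genes furthest to the left.

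Genes of DNA replication and mitosis were lower by small amounts, and replication-dependent histones by larger ones. None of 29 DNA replication genes rose and 1 fell (Rfc3), but 23 were lower at an adjusted p under 0.05, with a median change of −0.40. Rfc3 was not called with TMM factors, DESeq2 or edgeR or without the first NPC library (log2 fold change −0.96 to −0.89). None of 24 mitosis genes was called, 14 were lower at an adjusted p under 0.05 (limma), and the median was −0.31. Of 62 replication-dependent histone genes, 53 were tested, and 27 fell and none rose, with a median of −1.005. These genes are near-identical copies, and counts of single members such as Hist1h2aj (238 and 179 in NPCs and 34.6 and 32.8 at day 2) are uncertain.

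Of 23 p53 targets and CDK inhibitors, 4 rose and 1 fell. Cdkn1a (p21) had 1773 and 1790.3 in NPCs and 5215 and 4091 at day 2, and the death receptor gene Fas had 65.1 and 84.3 in NPCs and 349 and 335 at day 2. Cdkn2a, whose products bar reprogramming in fibroblasts, had 81.7 and 128 in NPCs and 237 and 210.4 at day 2 (log2 fold change 1.12 ± 0.25, adjusted p = 0.0103, limma), a call lost without the first NPC library or either day 2 library (0.80 to 1.205). Cdkn1c (p57) fell (149.7 and 181 in NPCs and 42.8 and 32.8 at day 2).

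Ribosome biogenesis genes, many of them known targets of Myc, moved by small and even amounts. All 25 were higher at an adjusted p under 0.05, against 28.6% of all genes, but only 4 passed the 2-fold minimum, with a median change of 0.75. Polr1b, a subunit of RNA polymerase I, had 1419.6 and 1351 in NPCs and 3041 and 3164 at day 2. Srm, spermidine synthase, had 1139.6 and 1225 in NPCs and 2615 and 2568 at day 2, and is an enzyme of polyamine synthesis rather than of ribosome biogenesis. Of 23 glycolysis genes, 5 rose and 5 fell. The glucose transporter gene Slc2a3 had 2175 and 543 in NPCs and 3702 and 3893 at day 2, and the lactate exporter gene Slc16a3 had 1758 and 380.4 in NPCs and 107 and 82.4 at day 2. Both differed widely between the 2 NPC libraries, and both lost their call without either day 2 library (1.77 to 1.84 and −3.30 to −2.92), Slc2a3 also without the second NPC library (0.80), with DESeq2 (1.57) and with no filter on low values. Ldhb fell in both libraries (1824 and 1926 in NPCs and 432 and 380.1 at day 2).

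Of 13 mitochondrially encoded subunits, 7 passed the filter and mt-Nd6 rose (319 and 334 in NPCs and 772 and 902 at day 2). Of 17 amino acid response genes, 3 rose and 2 fell, with Asns, asparagine synthetase, at 1510.1 and 1281 in NPCs and 3549 and 3102 at day 2. Of 17 chaperone genes, 3 rose and none fell, and the small heat shock gene Hspb1 had 15.6 and 36.0 in NPCs and 768 and 483 at day 2. Of 14 antioxidant and metallothionein genes, 13 were tested, and 6 rose and 1 fell. The metal-binding genes Mt1 (265 and 228 in NPCs and 2579 and 1756 at day 2) and Mt2 (85.6 and 134 in NPCs and 2131 and 1626 at day 2) rose, as did the glutathione peroxidase gene Gpx2 (2.92 and 0.878 in NPCs and 226 and 98.3 at day 2, a ratio of reads of 87.4-fold (95% interval 33.8 to 323)).

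Among the genes by which cells hold and cut matrix, some rose and others fell. Of 23 integrin and laminin genes, 22 were tested, and 10 rose and 3 fell, with a median change of 0.83. Itgb4, the integrin chain of epithelial hemidesmosomes, had 16.5 and 16.7 in NPCs and 1834 and 1141 at day 2. Itgb8, a chain typical of neural progenitors, fell (4054 and 3596 in NPCs and 400.2 and 563 at day 2), as did Itga8, whose call was lost without the second day 2 library (−2.01). Of 18 proteases and inhibitors, 15 were tested, and 7 rose and 4 fell. Timp1, an inhibitor of matrix metalloproteases, had 28.2 and 29.0 in NPCs and 2120.2 and 1726 at day 2, and Mmp3, stromelysin, which fibroblasts secrete, had 2 and 745 reads in both NPC and both day 2 libraries, a ratio of 406-fold (95% interval 112 to 3356). Plat, a plasminogen activator, fell (5127 and 8273 in NPCs and 2208 and 2166 at day 2), but was not called without either day 2 library (−1.59 to −1.56).

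Few chromatin genes passed the 2-fold minimum. Of 13 DNA methylation genes, 12 were tested, 1 rose and 1 fell, and 3 were higher and 8 lower at an adjusted p under 0.05 (limma). Tet1, which oxidizes methylcytosine, had 1601 and 1514 in NPCs and 589.6 and 589.6 at day 2 (log2 fold change −1.40 ± 0.09, adjusted p = 9.66e-05, limma), against 7718 and 9355 at day 5 and 10285 and 11817 in ESCs. It was thus lower at day 2 than in NPCs and than in the SSEA1-positive cells of day 5. The gene that rose was Gadd45b (44.7 and 47.4 in NPCs and 269.9 and 179.6 at day 2). None of 20 histone methylation genes was called, with 2 higher and 11 lower at an adjusted p under 0.05 (limma).

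The X chromosome was considered because 1 of the 2 X chromosomes is silent in NPCs and is reactivated later in reprogramming. Xist, the RNA that coats the inactive X, had 10744 and 10080.4 in NPCs and 9450.2 and 9772 at day 2 and was not called (log2 fold change −0.11 ± 0.07). Of 5 tested genes of the X-inactivation center, Tsix, which is truncated in this line and overlaps Xist on the opposite strand so that their reads are uncertain, rose (5.83 and 11.4 in NPCs and 28.5 and 20.8 at day 2) and Chic1 fell (−1.005). Chic1 was not called with TMM factors, DESeq2 or edgeR or without the second NPC or first day 2 library (−0.99 to −0.92). The median change of 573 X-linked genes was −0.27, with 11.0% higher and 19.0% lower, against −0.07, 15.2% and 14.3% for 14939 autosomal genes. This difference in medians was not tested.

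The X mus proportion is the share of allele-specific reads of an X-linked gene that come from the musculus X chromosome, the inactive one in these NPCs. It was deposited as 1 value per gene for each group, with no replicates and no read numbers, so the depth is unknown and no error can be given. Over 316 genes the median was 0.00107 in NPCs, 0.0212 at day 2, 0.0117 at day 5 and 0.481 in ESCs. It was higher at day 2 than in NPCs for 248 genes, lower for 31 and equal for 37, and 131 genes were at 0 in NPCs but 44 at day 2. The shift was small for most genes, with a median difference of 0.0140, and 13 genes were higher by 0.1 or more.

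The proportions were then split by the change in total expression. The median day 2 value was 0.0106 for the 24 genes that rose in expression, 0.0144 for the 45 that fell and 0.0229 for the 246 that were tested and not called. The largest single difference was in Itm2a, from 0.00250 to 0.326, followed by Kcnd1, from 0 to 0.317. Timp1, which fibroblasts express, went from 0 to 0.193, and Hprt, the site of the X-GFP reporter, from 0 to 0.167. Eif2s3x, which escapes inactivation, went from 0.347 to 0.519. The Y-linked genes given above were detected in the same libraries, and the part of RNA from the male feeders in these proportions was not tested.

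**Figure D5:**
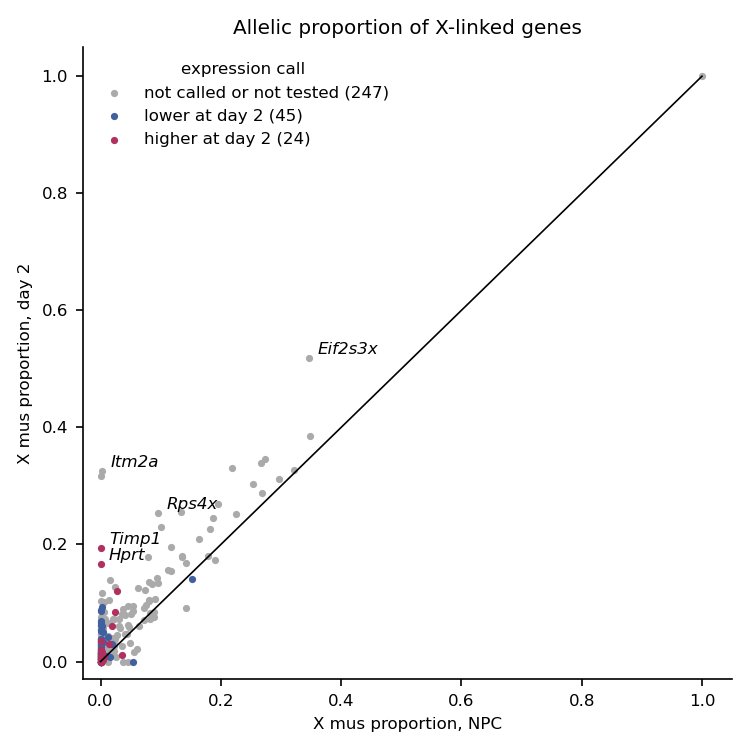
Each point is 1 of 316 X-linked genes, with the X mus proportion in NPCs (x) and at day 2 (y), coloured by whether its total expression was called higher or lower at day 2. The line marks equal proportions, and 248 genes lie above it, most of them close to 0 on both axes.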

How the data were processed

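The authors sequenced ribosome-depleted RNA, aligned reads with STAR to mm10 masked at the SNPs of both parental genomes, counted them per gene with HTSeq (0.6.1) and deposited a table of signal values, namely counts divided by DESeq2 size factors. In each library 100% of these values were whole multiples of 1 read within a tolerance of 0.001 reads, and the reads were recovered from them. The authors also deposited X mus proportions, pooled per population. The members and gene lists were chosen with earlier results of these data known.

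Genes with a mean above 10 in the 4 libraries were tested on log2(normalized count + 1) with limma (3.58.1, R 4.3.3, trended prior, 2 against 2 libraries), with Benjamini-Hochberg adjustment over all 15738 genes. An exact permutation test of 2 against 2 cannot go below p = 0.33. Beside genes fixed by name, the text names the 3 largest called changes each way per list (higher group mean of at least 100) and the 12 largest each way overall (at least 500), for genes whose groups did not overlap. A few other genes, among them Esrrb, Sall4, Zfp42, Sox1, Fabp7, Tagln, Irf7, H2-K1, Isg15, Xist and Itm2a, the genes whose calls are listed by name and the response element searched in interferon-stimulated genes were chosen after values were seen. A gene with at most 3 reads per library in 1 group was treated as at the floor. Gene positions were from GENCODE vM21, which held 95.2% of the identifiers, and promoters from RefSeq (GRCm38.p6). Alternatives were other pseudocounts, filters, scalings and thresholds, DESeq2 (1.42.0), edgeR (4.0.16), a replicate block and each library left out. The procedure was also run on simulated data, in which far fewer genes changed than were called here. Some genes named by the rule are not reported here.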

Additional observations from a re-analysis of the deposited data

How the results depend on the processing

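The numbers of genes higher and lower, 2356 and 2283, were 4495 and 5310 with no minimum fold. They ranged from 1704 to 2456 and from 1742 to 2287 when 1 library was left out, and were 2510 and 2112 with edgeR and 2367 and 1873 with DESeq2 on the recovered reads. The replicate numbers did not pair the libraries (correlation of deviations across genes −0.15), and the counts were 2319 and 2258 with a replicate block and 2382 and 2311 with the numbers crossed, an alternative chosen after seeing the data. Of the genes the text names, Foxc2 lost its call with the replicate block (−1.51). Of 173 named or listed genes examined in this way, 140 kept the same call under each of 15 alternatives. The changes of 4 genes that were not called turned in direction when a library was left out, the cause of which was not tested. With 1 library left out, Fut9 ranged from −0.51 to 0.0845 and Sall4 from −0.50 to 0.0880 (both above 0 without the first NPC library), H2-K1 from −0.21 (without the second NPC library) to 0.84, and Esrrb from −0.44 (without the first day 2 library; −0.23 without the second NPC library) to 0.53. The medians of 4 of the 41 lists turned in sign under an alternative, namely BMP and TGF-beta output, endothelial markers, glycolysis genes and X-inactivation center genes. The difference of the median X mus proportions was 0.0201, against 0.0249 with means and 0.0188 over genes under 0.25 in NPCs. With 2 libraries a group, small changes in genes with few reads could not be resolved.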

Other observations

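Genes that send and sense interferon were examined as a list chosen after values were seen. Of 28 genes, 18 passed the filter, and 11 rose and none fell, with a median change of 2.15. The cytosolic RNA sensor genes Ddx58 (RIG-I) and Ifih1 (MDA5) had 154 and 237 in NPCs and 2557 and 2655 at day 2 and 48.6 and 47.4 in NPCs and 1086 and 1231 at day 2, respectively. Zbp1, a sensor of Z-form nucleic acids, had 7.78 and 4.39 in NPCs and 574 and 632 at day 2 (log2 fold change 6.45 ± 0.30, adjusted p = 5.04e-05, limma). The type I receptor gene Ifnar1 (−0.37 ± 0.07) and the IFNγ receptor genes Ifngr1 (0.39 ± 0.11) and Ifngr2 (−0.83 ± 0.18) stayed under the 2-fold minimum. The 10 ligand genes searched (Ifna1, Ifna2, Ifna4, Ifna5, Ifnb1, Ifne, Ifng, Ifnk, Ifnl2 and Ifnl3) had no read in any of the 4 libraries, which allows up to 3 reads per library.

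Gene families, also chosen after values were seen, moved in different directions. Of 11 Oas genes, which sense double-stranded RNA, 7 were tested and all 7 rose. Of 14 S100a genes, which encode small calcium-binding proteins, 9 were tested and all 9 rose. Of 11 annexin genes (Anxa), 10 were tested and 8 rose, and of 53 keratin genes (Krt), 17 were tested and 16 rose. The share over all genes tested was 15.0%. A gene near 0 in NPCs passed the filter only if it was high at day 2, which favours increases among the tested members. Of 36 protocadherin genes (Pcdh), some of which mark single neurons by their surface, 34 were tested, and 25 fell and none rose. Of 24 tested genes for subunits of GABA and glutamate receptors, 13 fell and 2 rose. Of 349 genes named Zfp (zinc finger proteins), 73 fell and 16 rose, with a median change of −0.46. None of 71 ribosomal protein genes passed the 2-fold minimum, while 47 were higher and 2 lower at an adjusted p under 0.05 (limma), with a median of 0.32. Paralogs in these families share sequence, and single members are uncertain.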
